A study of Mus musculus with 30 samples.

Results

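The 41 mitosis genes described here encode proteins that start, time and carry out cell division, from the kinase Cdk1 and its cyclins to the motors, kinetochore proteins and condensins that move and pack chromosomes. They were listed by name as genes of mitosis, with no threshold on measured values, but the list was drawn up with earlier results of these data known. All 41 were found among the 54532 features of the count files, each as a single feature, and all 41 were among the 13286 genes that passed the filter on low counts. They lie on 16 chromosomes and were sorted by textbook function into 12 roles.

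As background, a cell that enters mitosis activates Cdk1 with B-type cyclins, condenses its chromosomes, attaches them to spindle microtubules through kinetochores, and waits at the spindle checkpoint until every chromosome is attached. The anaphase promoting complex then destroys cyclin B and securin, sister chromatids part, and the cell divides by cytokinesis. Most of these genes are transcribed late in the cell cycle, so their messenger RNA is known as a sign of how many cells in a sample are dividing. Their promoters are known for 2 short elements, the cell cycle genes homology region (CHR), which the DREAM and MuvB complexes recognise, and the CCAAT box, which NF-Y binds. In melanoma with a Braf mutation the RAF, MEK and ERK kinases drive entry into the cell cycle, and RAFi/MEKi stands for drugs that inhibit RAF and MEK.

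Messenger RNA was measured in cells of YUMM1.7, a mouse melanoma line with an activating Braf mutation, grown as subcutaneous tumours, with C57BL/6 given as the strain. There were 5 clones, named 2646TN, 2646R, 14559TN, 14559R and 13TN, and each was grown untreated or treated with RAFi/MEKi, which gave 10 groups of 3 tumours. The drugs, their doses and times, the age of the mice and the meaning of TN and R are not given in the sources used here, and the titles of the 13TN tumours carry the word Depleted. Each name stands for 1 clone isolated with CaTCH, a barcode method for pulling founder clones out of a mixed population, so a difference between names is a difference between single clones. In all groups the tumours were dissociated with collagenase, stained for viability and for the immune cell protein CD45, and the injected cells were picked out by their strong GFP signal. The titles give each tumour a code of its own that ends in L or R. Whether tumours shared an animal is not given in the sources used here. The p-values take the 30 samples as independent and rest on the spread among the 3 tumours within each group.

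Libraries held 3022801 to 5278453 counts, of which the mitosis genes took 1924 to 21532, or 0.0522% to 0.492%. Replicate pairs differed by more than counting error, with a chi-square of 3.26 to 17.2 per degree of freedom. The 17.2 was that of untreated 2646R replicates 1 and 3. Untreated 2646R replicate 1 had the most counts, 5278453, and yet the fewest genes with a count, 14669, where the other libraries had 15632 to 17234. It was the lowest of its group for 40.5% of tested genes and for 16 of 41 mitosis genes. In some groups 1 tumour stood apart for most mitosis genes. Untreated 14559R replicate 1 was the highest of its group for 38 of 41 mitosis genes (34.2% of tested genes), untreated 2646R replicate 2 for 35 (29.5%), and untreated 2646TN replicate 2 was the lowest for 36 (32.1%). Treated 14559R replicate 3 was the highest for 32 (35.6%), and treated 2646R replicate 1 was the lowest for 28 (33.2%). The 13TN groups had no such tumour. In untreated 13TN none was the highest for more than 19 or the lowest for more than 16. In treated 13TN none was the highest for more than 19 or the lowest for more than 21. Of the 7 pigment cell markers, Mlana, Tyr, Tyrp1 and Dct had 0 counts in all groups, except that Mlana was detected in treated 13TN. Pmel, Mitf and Sox10 had counts in every group. Together the 7 summed to 13.6 to 91.4 CPM (counts scaled by library depth and TMM factors) over the libraries. The 5 lymphocyte markers summed to at most 2.27 CPM in any library.

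The promoter sequences of 6 mitosis genes show the elements that many of the genes share. The sequences come from RefSeq (build GRCm38.p6), run 5′ to 3′ on the strand of the gene from 150 bases before the annotated start to 20 bases after it, and capitals mark TTTGAA, the CHR, and CCAAT, or their reverse complements TTCAAA and ATTGG. Ccnb2, Cdc20, Hmmr and Kif11 were chosen to show a CHR close to the start beside 1 or more CCAAT boxes. All of these boxes lie before the CHR except the second box of Cdc20, which follows it. Cdk1 was chosen to show 2 of each. Nuf2 was chosen because it had neither and because it had the largest fall in 14559TN. That fall was from 86 counts to 1 over the 3 libraries of each group. Their places are chr9:70421535-70421704 on the minus strand for Ccnb2, chr4:118437324-118437493 on the minus strand for Cdc20, chr11:40733418-40733587 on the minus strand for Hmmr, chr19:37376232-37376401 on the plus strand for Kif11, chr10:69352893-69353062 on the minus strand for Cdk1 and chr1:169531445-169531614 on the minus strand for Nuf2. Each overlaps the 5′ end of its gene as annotated in the count files, except that of Kif11, which ends just before it.
Ccnb2: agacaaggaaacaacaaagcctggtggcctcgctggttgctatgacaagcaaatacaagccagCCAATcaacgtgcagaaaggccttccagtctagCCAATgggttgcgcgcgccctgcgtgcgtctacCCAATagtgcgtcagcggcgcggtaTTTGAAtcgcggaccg
Cdc20: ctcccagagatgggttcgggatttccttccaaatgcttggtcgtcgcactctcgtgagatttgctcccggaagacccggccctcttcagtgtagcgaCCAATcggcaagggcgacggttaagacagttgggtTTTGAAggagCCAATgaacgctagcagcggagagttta
Hmmr: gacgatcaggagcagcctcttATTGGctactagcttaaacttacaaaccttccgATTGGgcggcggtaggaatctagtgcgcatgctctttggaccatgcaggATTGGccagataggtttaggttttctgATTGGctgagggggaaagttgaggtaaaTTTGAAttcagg
Kif11: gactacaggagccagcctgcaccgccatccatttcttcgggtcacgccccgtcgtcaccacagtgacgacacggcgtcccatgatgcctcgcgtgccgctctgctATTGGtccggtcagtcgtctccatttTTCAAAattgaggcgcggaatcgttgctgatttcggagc
Cdk1: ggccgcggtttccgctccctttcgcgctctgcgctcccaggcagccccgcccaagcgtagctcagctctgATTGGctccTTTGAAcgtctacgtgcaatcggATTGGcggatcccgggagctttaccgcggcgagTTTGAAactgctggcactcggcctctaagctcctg
Nuf2: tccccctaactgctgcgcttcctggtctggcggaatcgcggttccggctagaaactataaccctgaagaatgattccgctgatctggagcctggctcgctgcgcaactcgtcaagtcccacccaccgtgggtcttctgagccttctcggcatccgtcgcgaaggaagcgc

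A promoter of 300 bases, from 250 before to 50 after the start, was found for 35 of the 41 genes, while Aurkb, Ccna2, Foxm1, Kif20a, Smc4 and Tpx2 had no entry in the table. These 35 genes had 37 promoters, and for 31 of the 37 the last 30 bases were found in an annotated transcript of the gene. Not all windows lie at the 5′ end given in the count files. Those of Kif2c, Cdca8 and Kif4 lie inside the gene as annotated there. TTTGAA on either strand was present in the promoters of 27 of the 35 (77.1%), against 20.2% of 27025 genes with a promoter in the same table. CCAAT on either strand was present in 27 of 35 (77.1%), against 41.1%, and both elements were present in 24 of 35 (68.6%), against 7.97%. Within 50 bases of the start on either side, TTTGAA was present in 25 of 35 (71.4%), against 5.72%. The related word TTTAAA was present in 10 of 35, against 14.9%, and the E2F words TTTCCCGC or TTTGGCGC in 1 of 35, against 1.80%, on either strand. Matches of TTTGAA and CCAAT can overlap by at most 1 base, and TTTAAA is its own reverse complement. The mitosis genes without TTTGAA in these windows were Birc5, Bub1, Ccnb1, Cenpe, Mad2l1, Ncaph, Nuf2 and Nusap1. A match is a description of the letters and not a measured site.

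**Figure D1:**
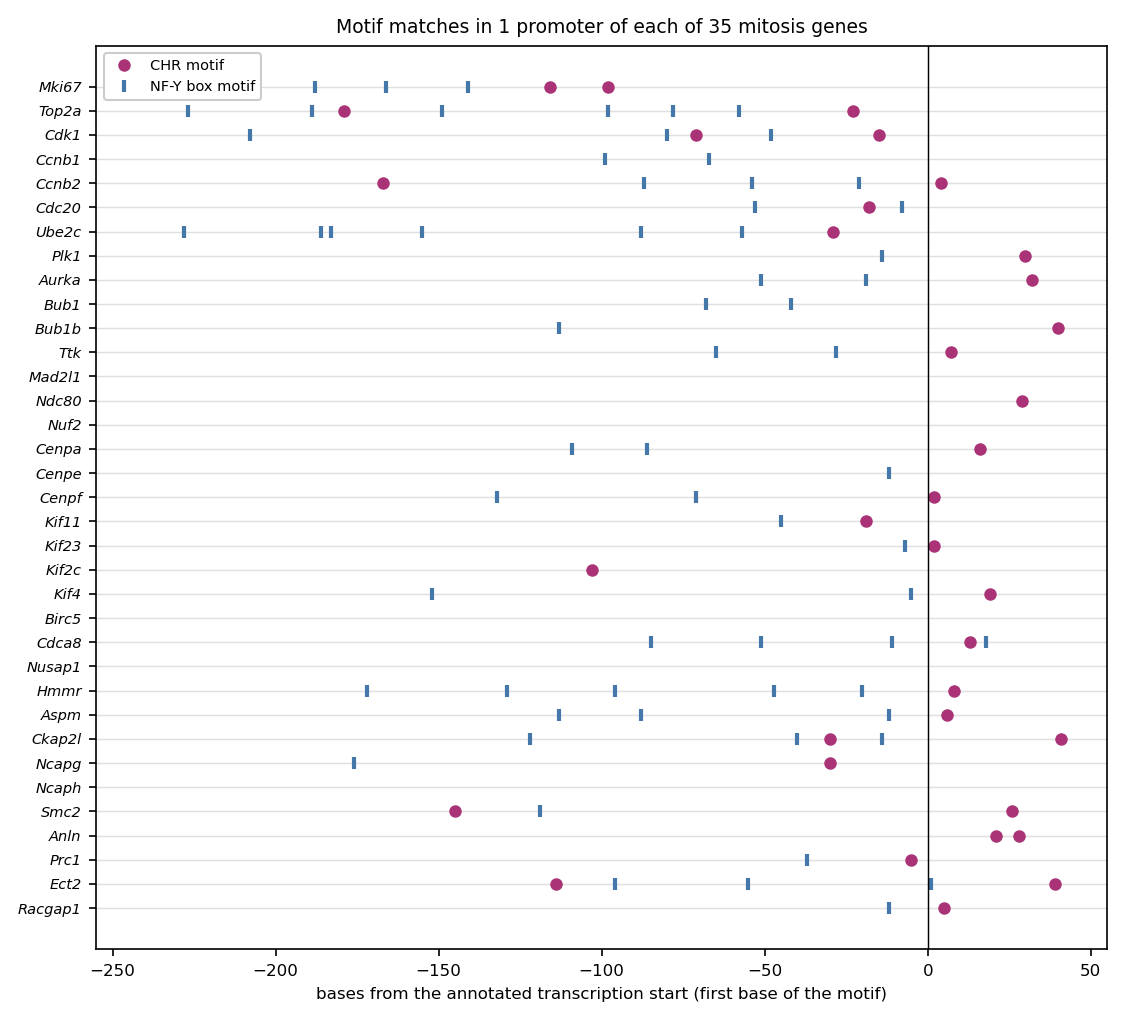
Positions of TTTGAA (CHR, circles) and CCAAT (ticks) matches on either strand in 1 promoter of each of 35 mitosis genes, in bases from the annotated start (vertical line), one gene per row. Most circles lie within 50 bases of the start and most ticks before it, while the rows of Mad2l1, Nuf2, Birc5, Nusap1 and Ncaph are empty.

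The question put to the mitosis genes was how each clone answered RAFi/MEKi and how the paired clones differed. Sorted by the genes called within each clone, the responses of the 5 clones were of 3 kinds, which is not a test between clones. In 14559TN and 13TN 40 of 41 mitosis genes fell, where 16% and 17.4% of tested genes were called lower. In 2646R 25 of 41 rose and none fell, where 9.7% of tested genes were called higher and 10.2% lower. In 2646TN and 14559R none was called, where 1.69% and 0.143% of tested genes were called higher and 2.24% and 0.0527% lower. These clones differed in direction, as all 41 log2 fold changes were below 0 in 14559R, while in 2646TN 21 were above 0 and 20 below. Here called means that edgeR's quasi-likelihood test gave a p below 0.05 after Benjamini-Hochberg adjustment over the 13286 genes. These are sorted bulk cells, so fewer dividing cells and less mitotic messenger RNA per cell cannot be told apart.

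Summed over the 40 genes other than Smc4, the level in CPM was 1907 ± 180 in untreated and 306 ± 47.0 in treated 14559TN, and 2600 ± 30.8 in untreated and 244 ± 26.3 in treated 13TN (SD, n = 3 in each group). In 2646R it was 2348 ± 486 untreated and 4059 ± 326 treated. The sum was 2298 ± 354 and 2433 ± 452 in untreated and treated 2646TN, and 2592 ± 495 and 1992 ± 270 in untreated and treated 14559R. Ordered by this sum, treated 13TN and treated 14559TN were lowest and overlapped each other, 7 groups from untreated 14559TN to untreated 13TN followed with ranges that overlapped their neighbours, and treated 2646R stood above all of them. The sum is a description and was not tested.

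**Figure D2:**
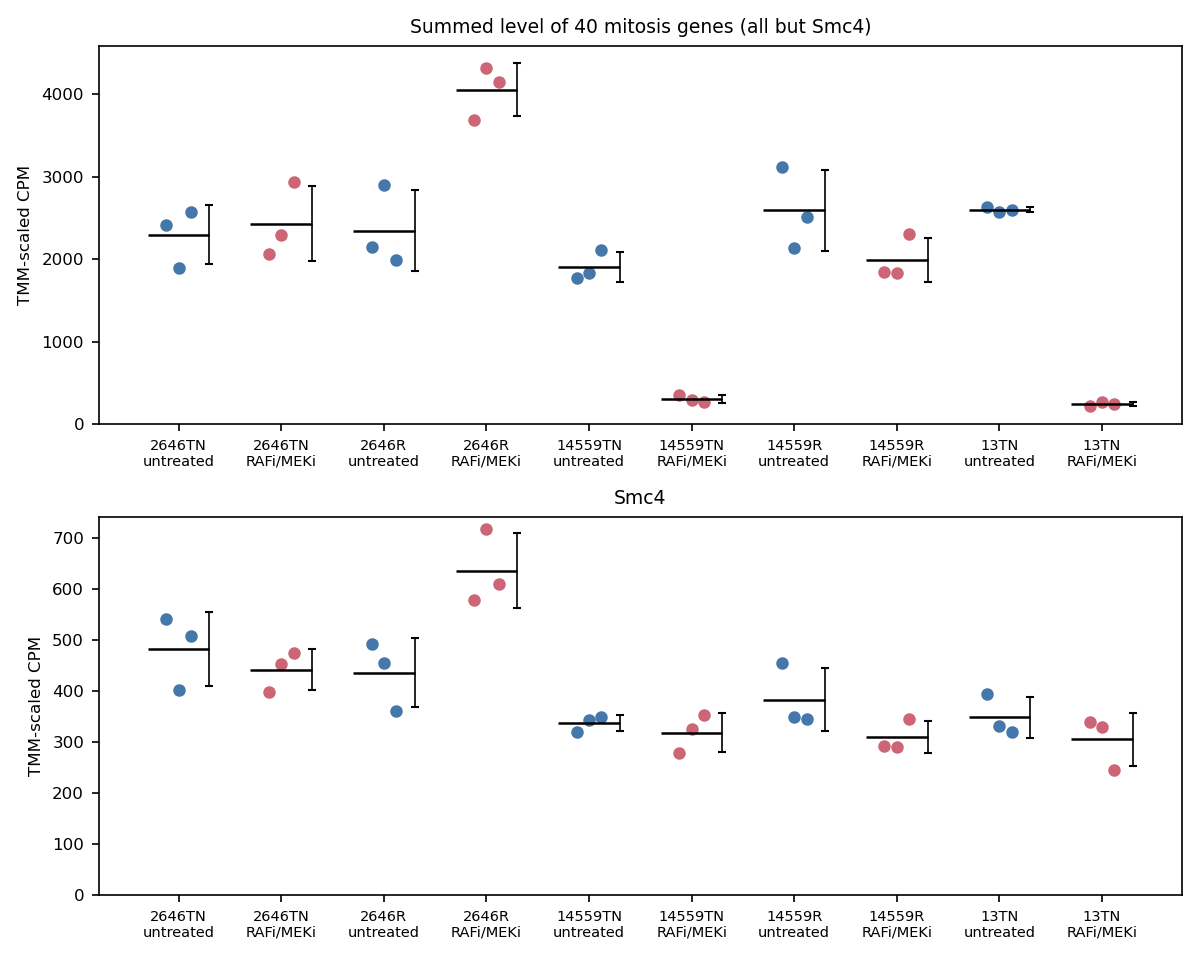
Summed TMM-scaled CPM of the 40 mitosis genes other than Smc4 (upper panel) and CPM of Smc4 (lower panel) in each tumour of the 10 groups, blue untreated and red RAFi/MEKi, with the mean as a line and the SD as the bar beside it. The upper panel drops to 244 and 306 in treated 13TN and 14559TN and reaches 4059 in treated 2646R, while the lower panel shows no such drop.

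In 14559TN 40 mitosis genes were called lower and 0 higher, where 16% of all tested genes were called lower and 12.4% higher, and the median log2 fold change of the 41 was -2.90 where that of all tested genes was close to 0. In 13TN 40 were called lower and 0 higher, where 17.4% of tested genes were called lower and 13.6% higher, with a median of -3.94. Every treated tumour lay below every untreated one for 40 of 41 genes in 14559TN (24.5% of tested genes were lower in this way) and for 40 of 41 in 13TN (24.1%). These counts stayed at 40 without any 1 library of the groups compared. The exception in both clones was Smc4.

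Mki67, which coats mitotic chromosomes and marks dividing cells, had 60.9, 69.1 and 80.7 CPM in the untreated and 7.67, 6.27 and 7.43 CPM in the treated 14559TN tumours. In 13TN it had 89.8, 83.8 and 68.6 CPM untreated and 3.16, 4.31 and 5.29 treated. No treated tumour came near the lowest untreated one, and the log2 fold change was -3.31 ± 0.30 (SE, adjusted p = 2.93e-09) in 14559TN and -4.25 ± 0.32 (adjusted p = 3.67e-11) in 13TN. Top2a, the topoisomerase that untangles sister chromatids, had -2.38 ± 0.25 and -3.15 ± 0.26.

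Among Cdk1 and its cyclins all 4 genes fell in both clones. Cdk1, the kinase that starts mitosis, had 81.5, 59.6 and 94.5 CPM untreated and 27.5, 44.1 and 33.4 treated in 14559TN, and 100, 162 and 161 untreated and 26.2, 31.5 and 28.7 treated in 13TN. The groups did not overlap in either clone. Its log2 fold change of -1.16 ± 0.23 in 14559TN (adjusted p = 3.61e-04) was the smallest fall among the 40 called genes, and that in 13TN was -2.29 ± 0.24 (adjusted p = 1.53e-08). Its partners fell too. Ccnb1, cyclin B1, had log2 fold changes of -3.37 ± 0.31 and -4.23 ± 0.29 in 14559TN and 13TN, Ccnb2, cyclin B2, had -4.07 ± 0.35 and -3.51 ± 0.34, and Ccna2, cyclin A2, had -3.53 ± 0.34 and -4.38 ± 0.34.

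Foxm1, the transcription factor that works with MuvB on late cell cycle genes, had 41.1, 29.5 and 33.3 CPM untreated and 9.09, 8.36 and 6.28 treated in 14559TN. In 13TN it had 53.3, 33.7 and 30.8 untreated and 7.44, 8.39 and 7.55 treated. The treated tumours of both clones stood below all untreated ones, at log2 fold changes of -2.12 ± 0.23 (adjusted p = 1.80e-08) and -2.33 ± 0.23 (adjusted p = 1.23e-09).

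Cdc20, the activator of the anaphase promoting complex, had 61.4, 48.9 and 74.1 CPM untreated and 6.53, 4.18 and 3.71 treated in 14559TN, and 79.6, 69 and 80.6 untreated and 2.71, 5.90 and 3.78 treated in 13TN. All treated values were under 7 CPM. Its log2 fold changes were -3.68 ± 0.32 (adjusted p = 1.29e-09) and -4.20 ± 0.32 (adjusted p = 5.15e-11), and those of Ube2c, the ubiquitin carrier of the same complex, were -3.60 ± 0.37 and -4.98 ± 0.38.

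Plk1, the Polo kinase of spindle poles and kinetochores, had 54.8, 53.5 and 65 CPM untreated and 11.1, 7.52 and 6.28 treated in 14559TN. In 13TN the values were 94.5, 101 and 89.5 untreated and 3.61, 8.17 and 7.55 treated. The groups were far apart in both clones, with log2 fold changes of -2.80 ± 0.27 (adjusted p = 7.82e-09) and -3.88 ± 0.28 (adjusted p = 8.61e-12). Aurka, the Aurora kinase of spindle poles, had -2.57 ± 0.33 and -3.62 ± 0.31.

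All 4 spindle checkpoint genes fell in both clones, over a wide range of sizes. Bub1b, which encodes the checkpoint protein BubR1, had 20, 27 and 26.2 CPM untreated and 3.69, 11.3 and 8.57 treated in 14559TN, and 24.8, 27.3 and 22.8 untreated and 4.74, 4.76 and 6.29 treated in 13TN. Treated 14559TN replicate 1 was the lowest of its group, and no treated value reached an untreated one. The log2 fold changes were -1.60 ± 0.29 (adjusted p = 7.67e-05) and -2.25 ± 0.30 (adjusted p = 7.42e-07). Mad2l1, the checkpoint protein that holds back Cdc20, had log2 fold changes of -1.49 ± 0.31 and -2.86 ± 0.33, and Ttk, the Mps1 kinase, had -3.89 ± 0.38 and -4.02 ± 0.37. Bub1, the kinetochore kinase, had the largest fall of all mitosis genes in 13TN, from 11.4, 11.2 and 13.8 CPM to 0, 0.680 and 0, or 137 counts to 3 over the 3 libraries of each group. The ratio of those counts scaled to depth was 51.4, with a 95% interval of 17.6 to 249 from the counting error of the lower count.

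The 5 centromere and kinetochore genes all fell in both clones. Ndc80, which grips microtubules at the kinetochore, had 15, 12.6 and 19.4 CPM untreated and 1.14, 1.25 and 1.43 treated in 14559TN, and 22.2, 15.4 and 22.8 untreated and 1.35, 1.81 and 1.51 treated in 13TN. All 6 treated tumours were under 2 CPM, and the log2 fold changes were -3.60 ± 0.42 (adjusted p = 7.54e-08) and -3.66 ± 0.39 (adjusted p = 1.08e-08). Nuf2, its partner in the same complex and a gene with neither promoter element above, went from 8.12, 5.53 and 9.08 CPM to 0.284, 0 and 0 in 14559TN. That was 86 counts to 1 over the 3 libraries of each group, a ratio of 91.0 (95% interval 16.3 to 3594, counting error only). In 13TN it went from 131 counts to 3, a ratio of 49.1 (16.8 to 238). Cenpa, the centromeric histone, Cenpe, a kinetochore motor, and Cenpf had log2 fold changes of -3.51, -2.84 and -3.38 in 14559TN and of -3.88, -3.55 and -4.42 in 13TN.

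The 5 kinesin motors all fell. Kif11, the motor that pushes spindle poles apart, had 9.64, 12.9 and 9.83 CPM untreated and 2.27, 0 and 1.71 treated in 14559TN, and 21.4, 31 and 28.3 untreated and 1.80, 0.454 and 2.27 treated in 13TN. The counts were low in both treated groups but did not overlap the untreated ones, at log2 fold changes of -3.11 ± 0.49 (adjusted p = 1.19e-05) and -4.15 ± 0.44 (adjusted p = 9.10e-09). Kif2c, which takes microtubules apart at centromeres, had -4.61 ± 0.56 and -4.16 ± 0.47, and Kif23, a motor of the central spindle, had -3.75 ± 0.24 and -4.14 ± 0.23. Kif20a and Kif4, also motors of the central spindle and chromosomes, lay between -3.84 and -3.02.

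The 3 genes of the chromosomal passenger complex, which corrects faulty attachments, fell in both clones. Aurkb, its kinase, had 3.81, 4.30 and 3.78 CPM untreated and 0.284, 0.836 and 0.286 treated in 14559TN, and 9.98, 7.44 and 13.8 untreated and 0.451, 0 and 0.504 treated in 13TN. Every treated tumour was under 1 CPM, with log2 fold changes of -2.90 ± 0.60 (adjusted p = 3.94e-04) and -4.92 ± 0.59 (adjusted p = 7.54e-08). Birc5, survivin, had -2.80 ± 0.20 and -3.73 ± 0.21, and Cdca8, borealin, had -3.31 ± 0.26 and -4.13 ± 0.26.

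Of the spindle assembly genes, Tpx2, which activates Aurora A at microtubules, had 61.7, 65.1 and 73.6 CPM untreated and 13.9, 12.1 and 9.14 treated in 14559TN, and 85.5, 87.1 and 79.4 untreated and 7.89, 16.3 and 6.55 treated in 13TN. Treated 13TN replicate 2 was the highest of its group and still stood well below the untreated tumours. The log2 fold changes were -2.51 ± 0.26 (adjusted p = 1.55e-08) and -3.02 ± 0.26 (adjusted p = 2.41e-10). Hmmr, a spindle protein, had -4.45 ± 0.37 and -4.37 ± 0.36, and Nusap1, which bundles spindle microtubules, had -2.74 ± 0.28 and -4.61 ± 0.30. Aspm, of the spindle poles, had -2.95 in 14559TN, and Ckap2l had -2.81 and -3.78.

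Of the 4 condensin genes, 3 fell in both clones. Ncapg, a subunit of condensin I, had 25.6, 23.4 and 35 CPM untreated and 7.67, 3.76 and 5.71 treated in 14559TN, and 33.1, 28 and 33.5 untreated and 0.902, 2.95 and 2.01 treated in 13TN. Its log2 fold changes were -2.32 ± 0.38 (adjusted p = 3.24e-05) and -3.99 ± 0.44 (adjusted p = 5.13e-08). Ncaph, of the same complex, had -2.55 ± 0.39 and -4.50 ± 0.42, and Smc2, one of the 2 ATPases shared by both condensins, had -1.91 ± 0.20 and -2.38 ± 0.20. The other ATPase, Smc4, had 319, 344 and 349 CPM untreated and 278, 324 and 353 treated in 14559TN, and 393, 331 and 319 untreated and 340, 330 and 245 treated in 13TN. The groups overlapped in both clones, and the log2 fold changes of -0.08 ± 0.15 (95% interval -0.38 to 0.21, adjusted p = 0.711) and -0.19 ± 0.15 (-0.49 to 0.11, adjusted p = 0.343) were not called. As the rest of the list fell, Smc4 went from 15.1 ± 0.81% to 51.0 ± 6.76% of the summed CPM of the 41 genes in 14559TN and from 11.8 ± 1.07% to 55.3 ± 5.00% in 13TN (SD, n = 3).

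All 4 cytokinesis genes fell. Anln, the actin binding scaffold anillin, had 34.3, 36.6 and 50.4 CPM untreated and 9.37, 7.73 and 6.57 treated in 14559TN, and 37.3, 28 and 43.7 untreated and 2.71, 5.90 and 4.78 treated in 13TN. The groups did not overlap, with log2 fold changes of -2.36 ± 0.27 (adjusted p = 5.96e-08) and -3.02 ± 0.29 (adjusted p = 1.10e-09). Ect2, which activates RhoA at the division plane, had -2.30 ± 0.45 and -5.32 ± 0.58, Racgap1, the centralspindlin subunit that binds Ect2, had -2.65 ± 0.22 and -2.99 ± 0.21, and Prc1, which bundles the central spindle, had -2.65 and -3.94.

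Other measures moved in the same tumours. The share of Malat1, a nuclear RNA, ran from 1.21% to 1.33% of all counts across untreated 14559TN and from 1.76% to 2.40% across treated 14559TN. In 13TN it ran from 1.22% to 1.32% and from 2.71% to 3.5%. The 7 fibroblast markers, which mesenchymal melanoma cells also express, summed to 8756 to 9664 CPM in untreated and 10026 to 16114 in treated 14559TN, and to 3882 to 4777 and 8260 to 9339 in 13TN, with 3 and 4 of the 7 called higher. The 12 macrophage markers summed to 18.7 to 80.3 CPM and 66.3 to 124 in 14559TN, with 1 of 10 tested called higher, and to 37.9 to 59.8 and 26.5 to 75.3 in 13TN, with 0 of 10 called. None of the fibroblast markers was at 0 in any group. The part of these measures in the falls was not tested.

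**Figure D3:**
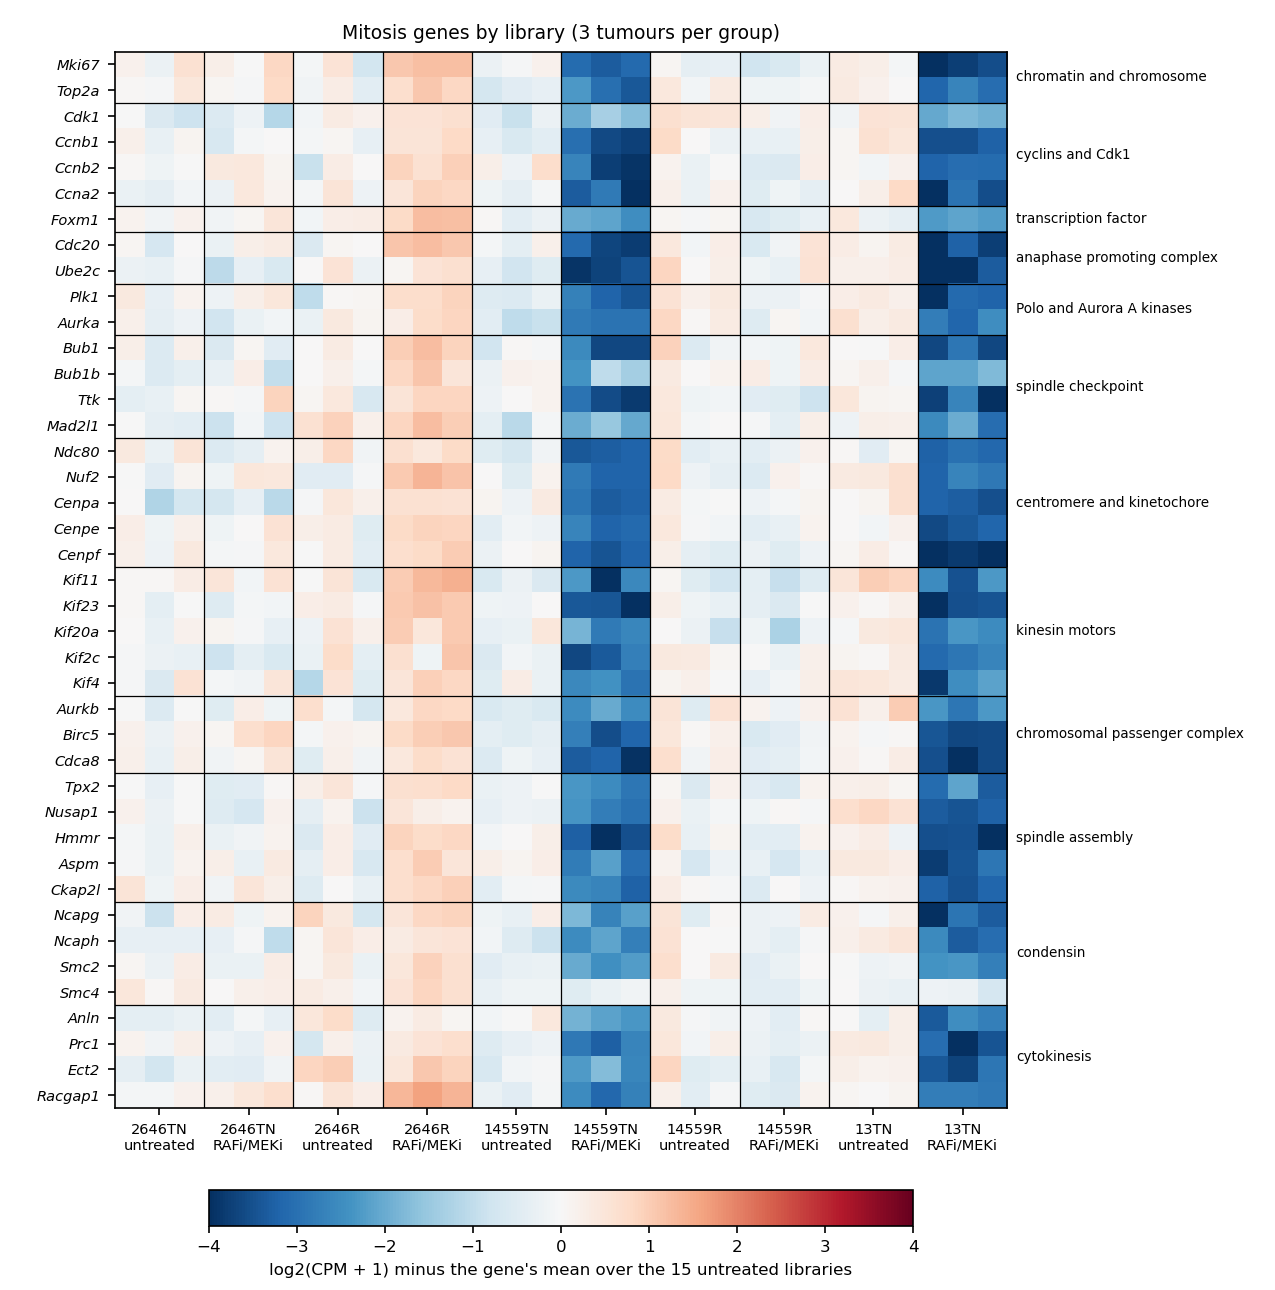
Each row is 1 of the 41 mitosis genes and each column 1 tumour, ordered by role and by group, coloured by log2(CPM + 1) minus the mean of that gene over the 15 untreated libraries, with colours limited to 4 in either direction. All rows but Smc4 turn blue in treated 14559TN and treated 13TN, and most turn light red in treated 2646R.

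In 2646R, 25 mitosis genes were called higher and 0 lower with RAFi/MEKi, where 9.7% of tested genes were called higher and 10.2% lower, and the median log2 fold change was 0.73 against 0.01 for all tested genes. Every treated tumour was above every untreated one for 27 genes (17.1% of tested genes). Each of the 12 roles held at least 1 gene that rose. Both chromatin genes, 4 of 5 spindle assembly genes and 3 of 5 kinesins rose, beside 2 of 4 cytokinesis genes and 2 of 4 condensin genes. Without any 1 library of the groups compared 18 to 28 genes were called.

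Mki67 had 67.8, 104 and 42.6 CPM in untreated and 152, 167 and 165 in treated 2646R, and all 3 treated tumours stood above the highest untreated one (log2 fold change 1.17 ± 0.24, adjusted p = 8.11e-04). Cdc20 had 42.6, 67.7 and 64.5 untreated and 139, 154 and 136 CPM treated (1.30 ± 0.24, adjusted p = 3.49e-04), and Foxm1 had 36.5, 47.8 and 49.2 untreated and 67.3, 93.7 and 92.9 treated (0.93 ± 0.19, adjusted p = 7.08e-04). Plk1 had 38.1, 80.7 and 83 untreated and 128, 128 and 145 treated (0.99 ± 0.22, adjusted p = 0.00193). These 4 genes, the chromosome marker, the anaphase activator, the transcription factor and the Polo kinase, were separated without overlap. Kif11 had 14.9, 22 and 9.56 untreated and 31.5, 38.7 and 42.3 CPM treated (1.26 ± 0.33, adjusted p = 0.00596) and Bub1b had 24.2, 27.5 and 22.1 untreated and 43, 51.8 and 33.7 treated (0.80 ± 0.26, adjusted p = 0.0249). Both were separated as well. The largest rise was that of Nuf2, from 5.70, 5.68 and 7.92 to 18, 22.3 and 19.2 CPM (1.63 ± 0.34, adjusted p = 8.01e-04), and the rise with the smallest adjusted p was that of Racgap1, from 70.7, 97.8 and 81.9 to 174, 208 and 176 CPM (1.16 ± 0.18, adjusted p = 1.35e-05).

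The other 6 genes given here by library were not called in 2646R. Cdk1 had 104, 141 and 127 CPM untreated and 163, 163 and 174 treated, with every treated tumour the higher, at 0.43 ± 0.22 (adjusted p = 0.166). Tpx2 had 87, 105 and 72.4 untreated and 117, 119 and 131 CPM treated (0.47 ± 0.22, adjusted p = 0.127), again without overlap. Ndc80 had 25.5, 38.6 and 19.4 untreated and 33.4, 28.8 and 37.2 treated (0.25 ± 0.28, adjusted p = 0.574). Aurkb had 10.6, 5.92 and 3.55 untreated and 8.90, 11.9 and 11.6 treated (0.67 ± 0.38, adjusted p = 0.230), and Ncapg had 54.8, 38.6 and 17.5 untreated and 41.2, 52.7 and 55.2 treated (0.41 ± 0.31, adjusted p = 0.373). The last 3 overlapped between groups through 1 high untreated tumour each. Anln, at 51.7, 63 and 26 untreated and 41.2, 46.9 and 39.5 treated, had the only negative log2 fold change (-0.15 ± 0.23, adjusted p = 0.707), which turned to 0.18 without untreated replicate 2. Also not called were Aurka, Bub1, Ccna2, Cenpa, Ect2, Kif20a, Kif2c, Mad2l1, Ncaph and Ube2c, with log2 fold changes of 0.18 to 0.97. Smc4, which was not called in 14559TN or 13TN, rose here from 492, 454 and 361 to 578, 718 and 609 CPM (0.54 ± 0.15, adjusted p = 0.00750).

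In the same clone the 7 fibroblast markers summed to 5989 to 7311 CPM untreated and 14453 to 16232 treated, with 3 of 7 called higher. The 12 macrophage markers, of which none was at 0, summed to 28.8 to 63.0 CPM untreated and 104 to 122 treated, with 2 of 10 tested called higher. Their part in the rises was not tested.

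In 2646TN 0 of 41 mitosis genes were called in edgeR and 0 in DESeq2, where 1.69% of tested genes were called higher and 2.24% lower, and 2 had an unadjusted p under 0.05. The median log2 fold change was 0.05. Birc5, at 146, 110 and 145 CPM untreated and 136, 203 and 231 treated, came nearest (adjusted p = 0.0806), and 1 mitosis gene was called without treated replicate 1. Mki67 had 81.6, 60.5 and 110 untreated and 85.5, 70.8 and 128 CPM treated (0.17 ± 0.24, adjusted p = 0.813), and Cdk1 had 111, 74.8 and 62.3 untreated and 75.7, 97.7 and 49.5 treated (-0.16 ± 0.22, adjusted p = 0.813). The groups overlapped for both. The log2 fold changes ran from -0.51 ± 0.29 for Ndc80 to 0.56 ± 0.28 for Ttk. The 12 macrophage markers summed to 153 to 252 CPM in untreated and 26.9 to 66.7 in treated 2646TN, with 6 of 10 tested called lower, and their part was not tested.

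In 14559R 0 of 41 were called in edgeR, where 0.143% of tested genes were called higher and 0.0527% lower. All 41 log2 fold changes were below 0, with a median of -0.29, and 9 genes had an unadjusted p under 0.05. Every treated tumour was below every untreated one for 9 genes (6.98% of tested genes). Mki67 had 75.5, 55.3 and 57.4 CPM untreated and 41, 46.9 and 59.9 treated (-0.35 ± 0.25, adjusted p = 0.668), and Plk1 had 116, 89.9 and 102 untreated and 66.7, 65.7 and 76.3 treated (-0.57 ± 0.22, adjusted p = 0.341). Mki67 overlapped between the groups and Plk1 did not. The values ran from -0.68 ± 0.28 for Ttk to -0.01 ± 0.22 for Nusap1, and without treated replicate 3, the highest of its group for 32 of 41 genes (35.6% of tested genes), 1 gene was called. With DESeq2 1 gene was called and with no low-count filter 2.

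**Figure D4:**
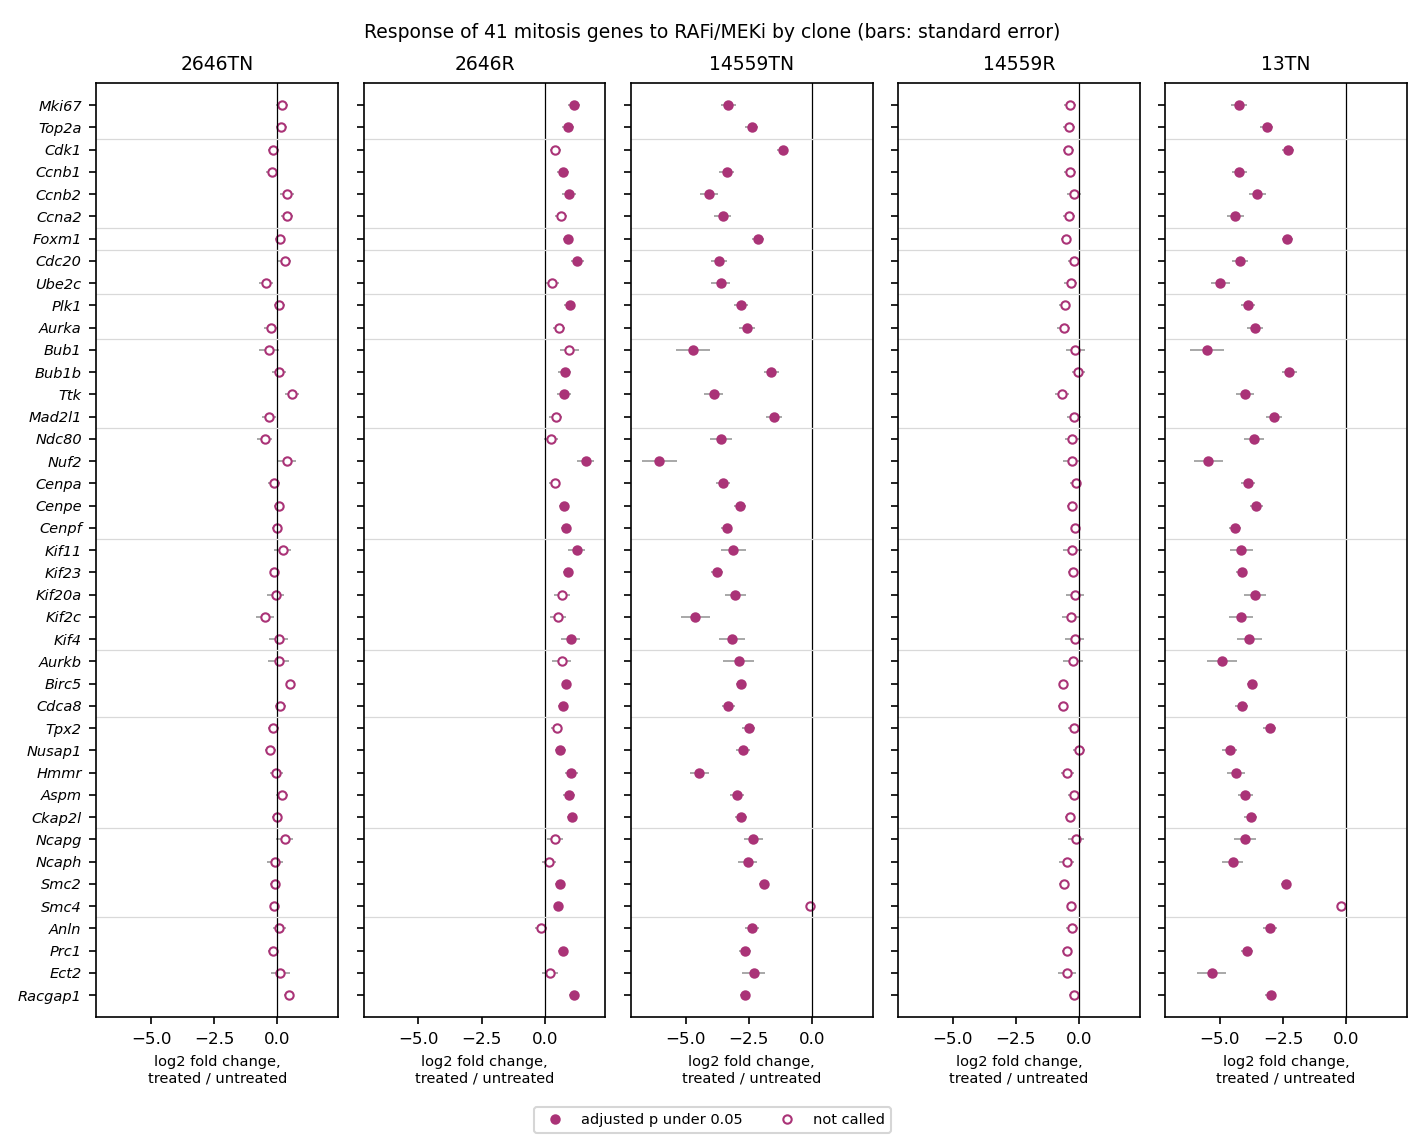
Log2 fold change of RAFi/MEKi against untreated for each of the 41 mitosis genes in the 5 clones, with the standard error as a bar, filled where the adjusted p was under 0.05 and open where not. The points of 14559TN and 13TN lie far left of 0 except Smc4, those of 2646R lie right of 0 except Anln, and those of 2646TN and 14559R are all open.

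The difference between responses was tested for 4 pairs of clones. It was higher in 14559R than in 14559TN for 39 mitosis genes (7.93% of tested genes were called in this direction and 4.08% in the other, median difference 2.69 on the log2 scale), with Cdk1 (0.73 ± 0.32, adjusted p = 0.137) and Smc4 (-0.23 ± 0.21, adjusted p = 0.536) not called. It was higher in 2646TN than in 14559TN for 39 genes (8.87% of tested genes, 5.19% in the other direction, median 3.09), with Mad2l1 (1.16 ± 0.43, adjusted p = 0.0629) and Smc4 (-0.05 ± 0.21, adjusted p = 0.920) not called. Both differences rest on the same 14559TN tumours. Of the 10 tested macrophage markers 5 were called lower in the second of these differences and 0 in the first, where 1 of 3 endothelial markers was higher. In the second 1 of 7 fibroblast markers was higher, and their part was not tested. Between 2646R and 2646TN the difference was called for 2 genes, Ckap2l at 1.11 ± 0.28 (adjusted p = 0.0161) and Kif23 at 1.05 ± 0.25 (adjusted p = 0.0113), where 2.36% of tested genes were called higher and 1.78% lower, and 23 of the 41 had an unadjusted p under 0.05. In place of 2, 5 genes were called with RLE size factors, 6 with DESeq2 and 13 with no low-count filter. The count was 8 without untreated 2646TN replicate 2, 9 without untreated 2646R replicate 2, 15 without treated 2646TN replicate 3 and 1 without untreated 2646TN replicate 1. The largest value, that of Bub1 (1.32 ± 0.55, adjusted p = 0.181), was not called, the one nearest 0 was that of Ect2 (0.10 ± 0.51), and Anln alone was below 0 (-0.22 ± 0.34). In the same comparison 7 of 10 tested macrophage markers were called higher and 0 lower, with a median of 3.75 on the log2 scale, and their part was not tested. So 25 genes called in 2646R and 0 in 2646TN did not make 25 called differences.

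Between 14559TN and 13TN, which share no tumours, the difference was called for 1 gene, Nusap1 (1.88 ± 0.44, adjusted p = 0.0408), where 0.263% of tested genes were called higher and 0.181% lower, and 18 genes had an unadjusted p under 0.05. In place of 1, 2 genes were called with DESeq2, 3 with only the groups compared and 6 with no low-count filter. The largest value, that of Ect2 (3.02 ± 0.83, adjusted p = 0.0989), was not called, and rests on 4 Ect2 counts over treated 13TN. Nuf2, with 1 and 3 counts in the treated groups, had the lowest (-0.59 ± 1.08) and Ndc80 the one nearest 0 (0.06 ± 0.73). Leaving out 1 library at a time ended the call of Nusap1 in 11 of the 12 cases, all but treated 13TN replicate 1. The fall was larger in 13TN for 37 of 41 genes, and across the 41 genes the log2 fold changes of the 2 clones had a Pearson correlation of 0.757 and a Spearman correlation of 0.625 (0.596 without Smc4), a description over genes that share libraries. Nusap1 had 21.6, 23.7 and 23.2 CPM untreated and 4.54, 3.13 and 2.57 treated in 14559TN, and 44.1, 49.4 and 40.6 untreated and 1.80, 1.59 and 2.01 treated in 13TN. Its untreated level was the higher in 13TN and its treated level the lower.

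Under treatment the R clone of each pair had the higher levels. Treated 14559R was above treated 14559TN for 40 mitosis genes (26.6% of tested genes were called higher and 22.7% lower), with a median log2 difference of 2.93, and Smc4 (-0.04 ± 0.15, adjusted p = 0.825) again stood alone. All 3 treated 14559R tumours were above all 3 treated 14559TN tumours for the 40 (29.9% of tested genes). The largest difference was in Nuf2, 94 counts against 1, a ratio of 89.1 (95% interval 16.0 to 3518, counting error only). In the same comparison all 10 tested macrophage markers had log2 differences below 0, with 3 called, and 4 of 7 fibroblast and 2 of 4 erythroid markers were called higher. Of 3 tested endothelial markers 1 was called higher and 2 lower. The part of these markers was not tested.

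Treated 2646R was above treated 2646TN for 29 genes (10% of tested genes were called higher and 10.1% lower), with a median of 0.87. The groups did not overlap for 36 (17.4% of tested genes). Without treated 2646R replicate 2, 19 genes were called in place of 29. The largest was Mad2l1, at 40.2, 53.2 and 44 against 11.6, 20.5 and 11.9 CPM (1.66 ± 0.28, adjusted p = 4.72e-05). Kif23 had 118, 130 and 120 against 39.5, 53.6 and 52.7 CPM (1.33 ± 0.18, adjusted p = 1.79e-06), and Birc5 had the smallest difference (0.37 ± 0.17, adjusted p = 0.113). Of the 41 genes, 29 were called here and 25 in the response of 2646R, with 17 called in both and 4 in neither. These comparisons share the treated 2646R tumours. The share of all tested genes called in both was not counted, so the 17 are a description and not a sign of agreement. All 10 tested macrophage markers were also above 0 between these groups, with 3 called, and of the 7 fibroblast markers 2 were called higher and 2 lower and of the 3 endothelial markers 1 was called lower. Their part was not tested.

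Without treatment fewer mitosis genes were called between clones. Untreated 14559R was above untreated 14559TN for 10 of 41 genes, where 12.9% of tested genes were called higher and 11.2% lower, with a median of 0.28. Aurka was the largest of them, at 44.1, 25.2 and 30.8 against 18, 11.7 and 12.9 CPM (1.23 ± 0.25, adjusted p = 5.33e-04), followed by Cdk1 at 175, 161 and 155 against 81.5, 59.6 and 94.5 (1.06 ± 0.22, adjusted p = 7.45e-04). Neither gene overlapped between the groups. The others were Birc5, Ccnb1, Cdca8, Plk1, Prc1, Smc2, Top2a and Ube2c, at 0.56 to 0.94, and the lowest value was that of Aspm (-0.42 ± 0.23, adjusted p = 0.194). The count was 3 without untreated 14559R replicate 1, the highest of its group for 38 of 41 genes, and 6 without untreated 14559TN replicate 2. Of the fibroblast markers 4 of 7 were called higher and 1 lower here, and 1 of 10 macrophage and 1 of 3 endothelial markers lower. Their part was not tested.

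Untreated 2646R against 2646TN gave 5 of 41 genes higher and 1 of 41 lower, where 18.3% and 18.4% of tested genes were called. Those higher were Anln, Cdk1, Cenpa, Ect2 and Mad2l1, with Ect2 the largest at 22.6, 24.4 and 9.83 against 9.07, 6.86 and 9.89 CPM (1.13 ± 0.36, adjusted p = 0.0127), and the lower one was Ckap2l (-0.50 ± 0.20, adjusted p = 0.0477), a spindle gene. The count was 2 without untreated 2646TN replicate 2 and 3 without untreated 2646R replicate 1. In the same comparison 6 of 10 tested macrophage, 2 of 3 endothelial and 2 of 4 erythroid markers were called lower. Of the 7 fibroblast markers 3 were called higher and 2 lower, and of 2 tested pigment cell markers 1 was called higher. The part of these markers was not tested.

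Among the untreated TN clones, 9 mitosis genes were lower in 14559TN than in 13TN, where 5.55% of tested genes were called lower and 5.63% higher, and all 3 tumours were lower for 24 genes (16.9% of tested genes). The 9 were Aurka, Aurkb, Ccnb1, Cdk1, Kif11, Ncaph, Nusap1, Plk1 and Prc1, with Aurkb the largest (-1.38 ± 0.41, adjusted p = 0.0253) and Ccnb2 at the other end (0.24 ± 0.26, adjusted p = 0.619). Leaving out 1 library at a time gave 3 to 5 genes, with 3 without untreated 14559TN replicate 2, 4 without untreated 13TN replicate 2 and 5 without any of the other 4. Of the 9, 5 were also among the 10 above, and both comparisons use the untreated 14559TN tumours. This overlap is a description only, as its share over all tested genes was not counted. Untreated 2646TN was above 13TN for Smc4 (0.47 ± 0.15, adjusted p = 0.0229; 8.63% of tested genes were called higher) and below it for Cdk1, Cenpa and Nusap1 (7.58%), a count of 4 that dropped to 1 without replicate 2 or 3 of either group. The largest negative value there was that of Aurkb, which was not called (-0.89 ± 0.40, adjusted p = 0.131). Against 14559TN it was above for Birc5 and Smc4 (10.1%) and below for Cenpa (-0.68 ± 0.23, adjusted p = 0.0317; 8.76%), and Ndc80 had the largest positive value (0.71 ± 0.29, adjusted p = 0.0905). The count of 3 was 11 with only the groups compared in the fit. It was 0 without untreated 2646TN replicate 3 and 1 without untreated 2646TN replicate 1 or untreated 14559TN replicate 1 or 3. Markers of other cells were called in these comparisons too. Fibroblast markers were higher for 5 of 7 in 14559TN against 13TN. Macrophage markers were higher in 2646TN for 6 of 10 against 13TN and 7 of 10 against 14559TN, endothelial markers for 1 of 3 in each, and erythroid markers for 2 of 4 against 14559TN. Of the fibroblast markers 1 was higher and 1 lower in 2646TN against 13TN and 3 were lower against 14559TN. Their part was not tested.

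**Figure D5:**
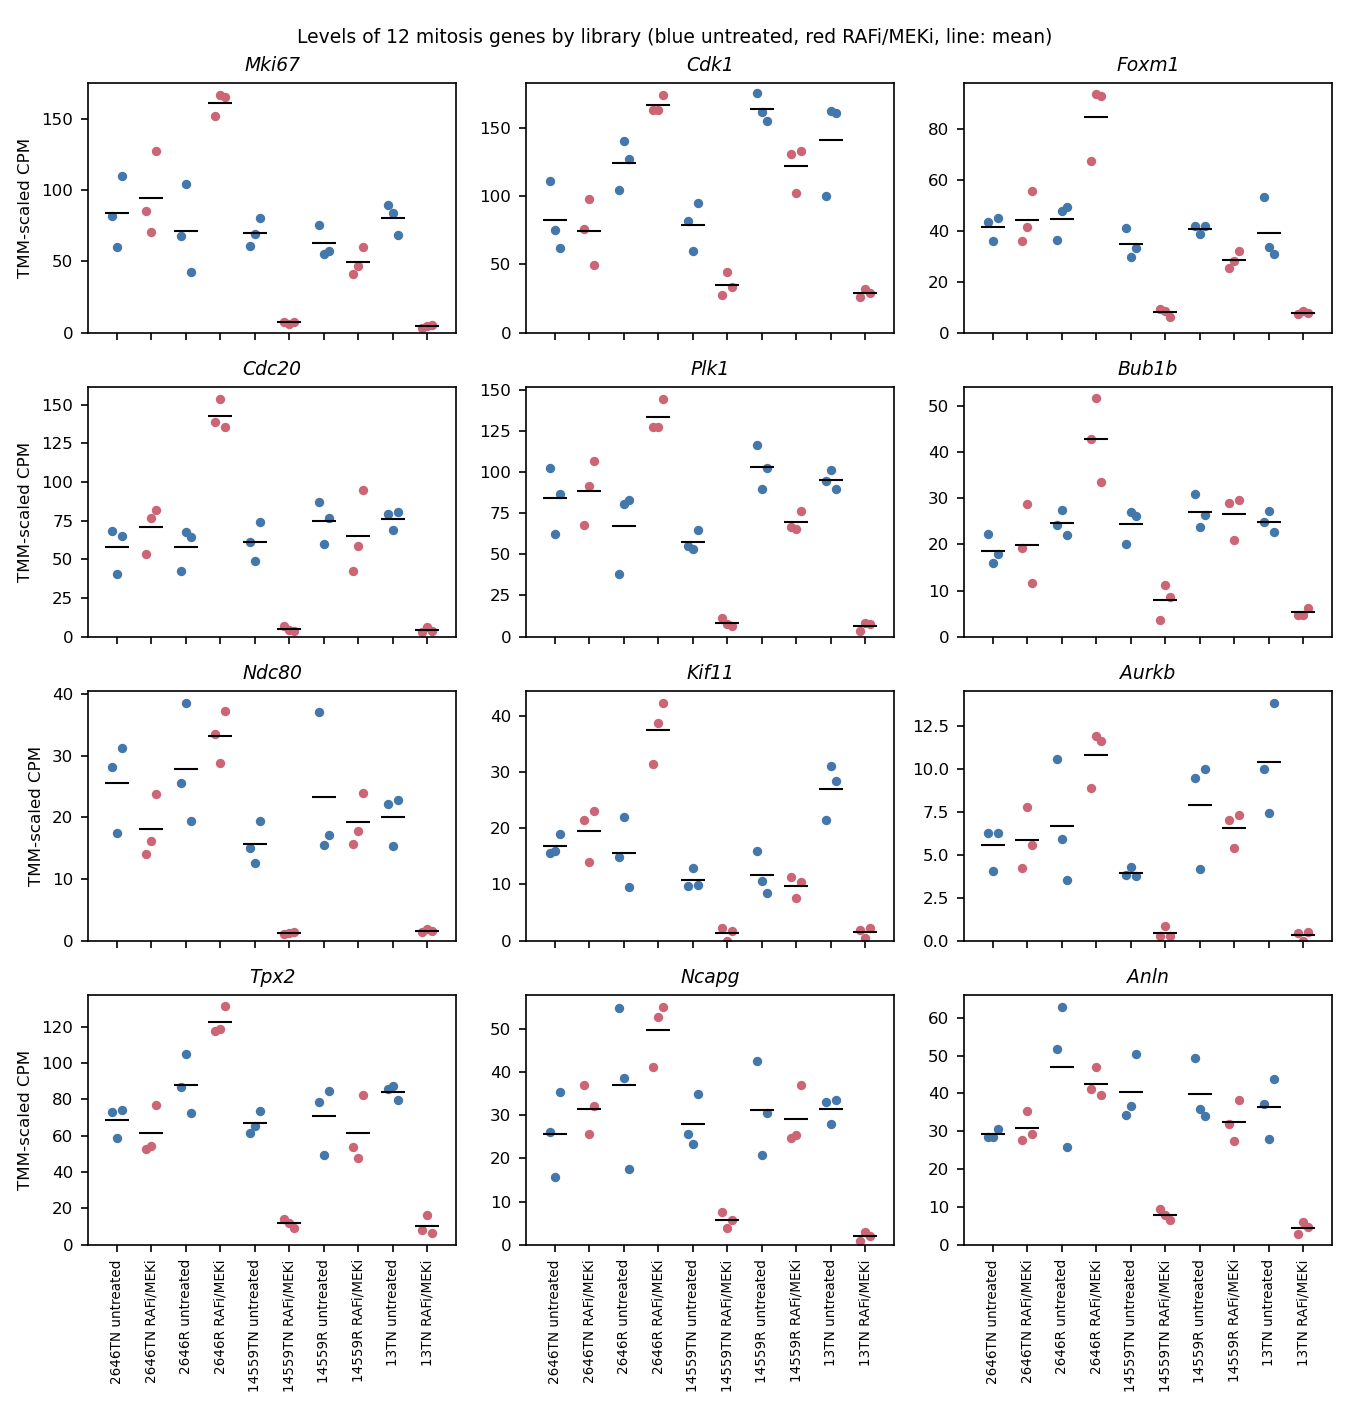
TMM-scaled CPM of 12 mitosis genes, one from each role, in each of the 3 tumours of the 10 groups, blue untreated and red RAFi/MEKi, with the mean as a line. In each panel treated 14559TN and treated 13TN are lowest, and treated 2646R has the highest mean in all panels but that of Anln.

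The response was also set beside the promoter. In 14559TN the 27 genes with TTTGAA in the promoter had a median log2 fold change of -3.11 and the 8 without it -2.82, and in 13TN the medians were -3.94 and -4.36. In 2646R they were 0.80 and 0.75. These medians describe the list and were not tested.

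Other cell cycle genes gave the setting. Of 115 further genes of mitosis, such as cohesin, centrosome and checkpoint genes, 112 were tested. In 14559TN 67 of them fell and 2 rose, in 13TN 76 fell and 4 rose, in 2646R 27 rose and 3 fell, in 2646TN 1 rose and in 14559R 0 were called, with medians of -1.04 in 14559TN, -1.58 in 13TN and 0.40 in 2646R. Pttg1, the securin that guards sister chromatids, and Numa1, a spindle pole protein, rose in both 14559TN (0.49 ± 0.15 and 0.69 ± 0.13) and 13TN (0.41 ± 0.15 and 0.46 ± 0.13), and Pds5b and Kif13b rose in 13TN. Those 4, and Pttg1, Zwint and Arpp19, which fell in 2646R, were named after their values were seen. The largest falls were too near 0 for a fitted size. Over the 3 libraries of each group, Cep55, of cytokinesis, went from 72 counts to 2 and Cdca5, which guards cohesion, from 63 to 2 in 14559TN, and Nsl1, of the kinetochore, went from 46 to 0 and Gtse1 from 65 to 2 in 13TN. In 2646R the largest rises were those of Fam83d (1.61 ± 0.55) and Espl1, the separase (1.34 ± 0.26), and the gene that rose in 2646TN was Cdc25a, a Cdk activator (0.74 ± 0.21).

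Of 35 DNA replication genes, 32 fell in 14559TN and 34 in 13TN, 17 rose in 2646R, and 0 were called in 2646TN or 14559R. Their medians were -1.72, -2.19 and 0.72 in 14559TN, 13TN and 2646R, beside -2.90, -3.94 and 0.73 for the 41 mitosis genes. Uhrf1 (-3.51 ± 0.32) and Mcm10 (-3.12 ± 0.36), of replication forks, fell furthest in 14559TN, Rrm2, the ribonucleotide reductase subunit, had -4.16 ± 0.36 in 13TN, where Orc1, of the origin recognition complex, went from 51 counts to 0, and Gins2 (1.16 ± 0.27) and Rpa2 (1.10 ± 0.21) had the largest rises in 2646R. The genes not called were Orc6 in both clones, and Rfc5 and Gins3 in 14559TN.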

How the data were processed

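The deposited unit is the count, whole reads per gene in each of the 30 libraries. Per the labels' protocols, the Lexogen QuantSeq 3′ kit was used, and per the submitters' processing notes the authors used STAR 2.6.0c, featureCounts 1.6.2 and GRCm38. Per the file headers, counting was strand-aware and without multi-mapping reads, so a member that shares 3′ sequence with a copy could lose reads. From the counts, edgeR 4.0.16 (R 4.3.3) made 1 quasi-likelihood fit of the 10 groups (filterByExpr by group, TMM factors, robust dispersion, 20 residual degrees of freedom, biological coefficient of variation 18.2%), with 16 contrasts and Benjamini-Hochberg adjustment over 13286 genes at 0.05. A standard error is the size of the log2 fold change divided by the root of its F statistic. The code was tested on simulated data. Ratios with 1 to 3 counts in the lower group carry a 95% Poisson interval, for counting error only. Promoters are those of the RefSeq table, searched on both strands. All members are accounted for by role, 1 gene of each role was given by library, the highest and lowest value of each comparison were named, and in the response differences also the one nearest 0. Members and lists were chosen with earlier results of these data known. Alternatives were RLE size factors, DESeq2 1.42.0, no low-count filter, only the groups compared, leaving out each library and total-count CPM.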

Additional observations from a re-analysis of the deposited data

Results flagged for a closer look

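The responses of clones to RAFi/MEKi were compared by a test of the difference itself (edgeR's quasi-likelihood test, adjusted p under 0.05). It was called higher for 39 mitosis genes in 14559R minus 14559TN (7.93% of tested genes) and for 39 in 2646TN minus 14559TN (8.87%). It was called higher for 2 in 2646R minus 2646TN (2.36%) and for 1 in 14559TN minus 13TN (0.263%). Leaving out 1 library at a time gave 1 to 15 genes for 2646R minus 2646TN and 0 to 1 for 14559TN minus 13TN. The largest differences were those of Nuf2, at 5.75 ± 0.83 on the log2 scale for 14559R minus 14559TN and 6.42 ± 0.82 for 2646TN minus 14559TN. Both rest on a treated 14559TN group with 1 Nuf2 count in 3 libraries, so their size is uncertain.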

How the results depend on the processing

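The counts of mitosis genes called in the responses of 14559TN and 13TN and in treated 14559R against 14559TN were within 1.5 times of 40 under RLE size factors, DESeq2, no low-count filter and the fit of only the groups compared. With 41 genes listed no count could exceed 41, so this wide bound could be missed only by a much lower count. For the difference between 2646R and 2646TN, 5 genes were called with RLE size factors, 13 with no filter and 6 with DESeq2, in place of 2. For the response of 14559R, 2 were called with no filter and 1 with DESeq2, in place of 0. For the difference between 14559TN and 13TN, 6 were called with no filter, 2 with DESeq2 and 3 with only the groups compared, in place of 1, and untreated 2646TN against 14559TN gave 11 with only the groups compared, in place of 3. The cause was not tested.

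Leaving out 1 library at a time gave 40 to 40 genes for the response of 14559TN, for that of 13TN and for treated 14559R against 14559TN. It gave 18 to 28 for the response of 2646R and 0 to 1 for those of 2646TN and 14559R. It gave 19 to 32 in treated 2646R against 2646TN, 3 to 11 in untreated 14559R against 14559TN and 2 to 5 in untreated 2646R against 2646TN. It gave 3 to 5 in untreated 14559TN against 13TN, 1 to 5 in untreated 2646TN against 13TN, and 0 to 4 in untreated 2646TN against 14559TN. The differences gave 36 to 39 for 14559R minus 14559TN, 38 to 40 for 2646TN minus 14559TN, 1 to 15 for 2646R minus 2646TN, and 0 to 1 for 14559TN minus 13TN. Of 718 checks of named genes, 670 kept their direction and side of the threshold, 26 lost a call, 8 gained one and 14 changed sign. The 14 were uncalled values near 0, each without 1 library. Over the libraries left out, Smc4 ran from -0.185 to 0.0378 in the difference of 2646TN and 14559TN and from -0.134 to 0.0214 in the response of 14559TN, Ndc80 from -0.0852 to 0.227 in the difference of 14559TN and 13TN, and Ect2 from -0.181 to 0.341 in that of 2646R and 2646TN. Anln ran from -0.378 to 0.179 in 2646R, Nusap1 from -0.124 to 0.113 in 14559R, and Ccnb2 from -0.0142 to 0.444 in untreated 14559TN against 13TN.

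No paired analysis was possible because the replicate numbers only name samples, and the labels do not say which tumours, whose codes end in L or R, share an animal or a batch. Depth limits the size of the falls of Nuf2 and Bub1, which had 1 to 3 counts over a treated group. It also limits those of Ect2 and Aurkb in 13TN and of Kif2c and Bub1 in 14559TN, each with 4 counts over the treated group.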
